A study of Mus musculus with 7 samples.

Results

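The sites described here are the regions at which Zfp281 was bound in both mouse embryonic stem cells (ESCs) and mouse extraembryonic endoderm stem cells (XENs) and which also carried Polycomb in ESCs. They were chosen by overlap of the authors' peak lists: a peak of the ESC Zfp281 list was taken when it overlapped an ESC Suz12 peak and an XEN Zfp281 peak by 1 bp or more. This gave 200 sites of the 52296 peaks in the ESC Zfp281 list. In the whole ESC Zfp281 list, 7.77% of the peaks overlapped a Suz12 peak (4063 peaks) and 5.10% overlapped an XEN Zfp281 peak (2666 peaks). The Suz12 list held 8184 peaks. The XEN Zfp281 list held 3449, of which 662 overlapped no ESC Zfp281 peak. These shares of the ESC list are thus limited by the lengths of the shorter lists. Both overlaps were used to choose the sites, and every peak measure of these 3 lists is therefore given as a description with no test.

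Binding was measured by chromatin immunoprecipitation followed by sequencing (ChIP-seq) in cells of the 129S1 mouse strain grown without feeder cells. ESCs were kept in serum with LIF, and XENs in medium conditioned by mouse embryonic fibroblasts. The groups used were ESC Zfp281, ESC Suz12 and XEN Zfp281, with XEN Suz12 and XEN H3K27me3 for reference. Each of the 7 groups, the input samples of both cell types included, was 1 library, so no difference between the cell types could be set against a spread between replicates. The 95% intervals below describe counting error alone, and they treat peaks as independent although neighbours are not.

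ESCs are the pluripotent cells of the early embryo in culture, and XENs are stem cells of the primitive endoderm lineage, which forms the yolk sac. Polycomb repressive complex 2 trimethylates histone H3 at lysine 27 (H3K27me3), and Suz12 is one of its core subunits, together with Eed and the methyltransferase Ezh2. In ESCs the complex sits mainly at CpG-rich promoters of developmental regulators, which it holds in a repressed state. Zfp281 is a zinc finger transcription factor that binds G-rich DNA and is known in ESCs for activating and repressing genes of the pluripotency network. The study asked how Zfp281 in ESCs bars their conversion into XENs. A site with all 3 peaks is one where the factor was found in both cell types, in a region that met a Suz12 peak in ESCs.

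The 200 sites were spread over the genome. They lay on all 20 chromosomes on which the ESC Suz12 and XEN Zfp281 lists had peaks, with 19 on chromosome 2, 18 on chromosome 11 and 15 each on chromosomes 3, 6 and 8. Chaining sites that lay within 10 kb or shared a Suz12 peak gave 191 loci, of which 182 held a single site and 9 held 2. The sites touched 252 Suz12 peaks and 217 XEN Zfp281 peaks. As a share of the ESC Zfp281 peaks with Suz12 on the same chromosome, they ranged from 2.38% on chromosome 4 (1.10 to 5.10%, 95% Wilson interval) to 10.2% on chromosome 16 (5.78 to 17.3%). These 2 intervals did not overlap, but they are the extremes of 20 chromosomes.

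One site stood apart from the others. At chr17:39984417-39985747 (mm9), the pileup at the ESC Zfp281 summit was 602 over an expected level of 162, at the XEN Zfp281 summit 259 over 130, and at the ESC Suz12 summit 276 over 154. Both are in pileup units of the list, which equal tags in the ESC Zfp281 list and scaled tags in the other lists. The median expected level at the 200 sites in the ESC Zfp281 list was 3.91 tags, and the genome-wide background was 3.01. The fold was low in all lists, at 3.69 for ESC Zfp281, 1.99 for XEN Zfp281 and 1.79 for ESC Suz12. No other ESC Zfp281 peak of the Suz12 or XEN-shared classes exceeded 5 times the background. Without this site 199 remain, and the share of ESC Zfp281 peaks with Suz12 that had an XEN peak goes from 4.92 to 4.90%. At 67.5% of the sites (60.7 to 73.6%) the expected level exceeded the background, compared with 63.0% (61.5 to 64.5%) at the ESC Zfp281 peaks with Suz12 but no XEN peak and 70.6% (68.8 to 72.4%) at those with an XEN peak but no Suz12.

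In ESCs the sites were strong and wide Zfp281 peaks. Their fold enrichment in the authors' ESC Zfp281 list ran from 3.48 to 66.6 with a median of 16.0 (14.2 to 17.6). The median was 6.71 (6.48 to 6.93) at the 3863 ESC Zfp281 peaks that had Suz12 but no XEN peak, and 13.2 (12.8 to 13.7) at the 2466 that had an XEN peak but no Suz12. It was 5.23 at the 45767 peaks that had neither. Widths followed the same order, with medians of 1570 bp at the 200 sites, 873 bp, 1067 bp and 564 bp. A wide peak meets other peaks more easily, so width is partly set by the rule itself.

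**Figure D1:**
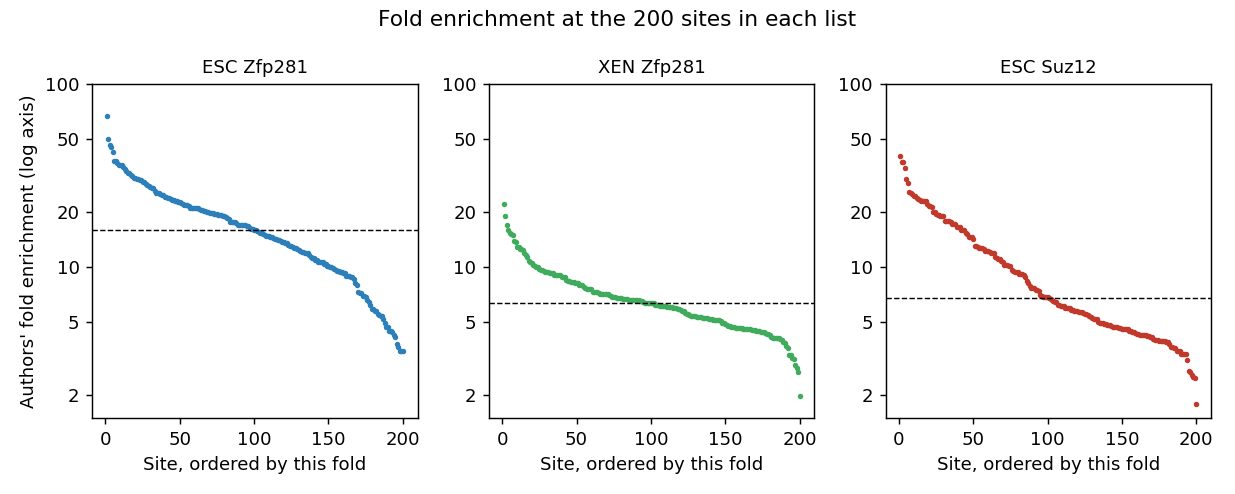
Authors' fold enrichment (log axis) at each of the 200 sites in the ESC Zfp281, XEN Zfp281 and ESC Suz12 lists, each panel ordered by its own values, with the median as a dashed line. Medians were 16.0, 6.36 and 6.80, and the XEN values spanned the narrowest range; where a site met several peaks of a list, the highest-scoring one is shown.

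In XENs the same regions carried ordinary peaks of that list. The 217 XEN Zfp281 peaks at the sites had a median fold of 6.14 (5.76 to 6.57) and a median width of 393 bp. The 2570 XEN peaks at other ESC Zfp281 peaks had 6.43 (6.36 to 6.57) and 394 bp, and the intervals of the 2 medians met. The XEN summits rested on 15 to 318 tags with a median of 32.0, the ESC Zfp281 summits on 13 to 602 with a median of 78.0. At most sites (185 of 200) there was 1 XEN peak.

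The Suz12 peaks under the sites resembled those of other Zfp281-bound Polycomb regions. The 252 peaks had a median fold of 6.15 (5.63 to 7.51) and a median width of 1316 bp (1153 to 1503). The 3495 Suz12 peaks that met an ESC Zfp281 peak but none of the sites had 6.69 (6.44 to 6.90) and 1270 bp (1218 to 1300). Both medians lay above those of the 4437 Suz12 peaks without ESC Zfp281, which had 4.82 (4.75 to 4.93) and 786 bp (766 to 811).

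Counted per Suz12 peak, the shares that held one of the sites had overlapping intervals in narrow and wide domains. Among Suz12 peaks with ESC Zfp281, 6.62% (5.20 to 8.39%) of the narrowest quartile held one of the sites, at a median Suz12 width of 515 bp. In the widest quartile, with a median of 4038 bp, the share was 7.79% (6.24 to 9.68%). Over all 3747 such Suz12 peaks it was 6.73% (5.97 to 7.57%). Counted per Zfp281 peak, at Suz12 peaks wider than 5 kb, a class defined after the values were seen, 3.41% (2.42 to 4.81%) of 908 ESC Zfp281 peaks had an XEN peak, against 4.92% (4.30 to 5.63%) of all ESC Zfp281 peaks with Suz12, and these intervals overlapped.

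Most Suz12 domains with several ESC Zfp281 peaks held none of the sites. Of 662 Suz12 peaks with 2 or more ESC Zfp281 peaks, 57 held one (8.61%, 6.71 to 11.0%). Within these 57, chosen because they held a site, the strongest Zfp281 peak was usually one shared with XENs. In 45 of them (78.9%, 66.7 to 87.5%) the highest-scoring ESC Zfp281 peak of the domain was among the 200. Of the 161 ESC Zfp281 peaks counted over these domains, 63 were shared with XENs (39.1%, 31.9 to 46.8%).

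In the highest classes of ESC Zfp281 strength, a smaller share of the peaks with Suz12 than of those without it had an XEN peak. Over all strengths the intervals overlapped: 4.92% of the ESC Zfp281 peaks with Suz12 had an XEN peak, and 5.11% (4.92 to 5.31%) of the 48233 without Suz12. They did not overlap when each overlap was replaced by an ESC summit within 500 bp of the Suz12 peak or XEN summit. The shares were then 3.70% (3.17 to 4.32%) and 4.90% (4.71 to 5.10%). Nor did the intervals overlap in the higher-scoring 50% of the ESC list, at 7.18% (6.25 to 8.24%) and 9.15% (8.79 to 9.52%). The order was the other way, with overlapping intervals, when 50% of the shorter peak had to be covered (5.17% and 5.03%). The same held with peaks closer than 500 bp merged (5.57% and 5.37%). In the other settings that changed the peaks, the share with Suz12 was the lower one and the intervals overlapped. Peaks with Suz12 were stronger on the whole, with a median fold of 6.98 in the ESC list, and strong peaks had an XEN peak more often. The peaks were therefore divided into 10 equal classes by the authors' score, which is 10 times the -log10 q-value.

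In the highest of these deciles, 116 of 731 peaks with Suz12 had an XEN peak, or 15.9% (13.4 to 18.7%). Of the 4499 peaks without Suz12 in that decile, 26.4% (25.1 to 27.7%) had one. The median ESC folds of the 2 classes were alike, at 19.3 and 19.2. In the ninth decile the shares were 6.20% (4.57 to 8.36%) and 10.1% (9.25 to 11.0%), and again the intervals did not meet. The share with Suz12 was the lower one in 8 of the 10 deciles. In deciles 3 and 4 it was the higher one, with 4 XEN peaks in each, and below the ninth decile every pair of intervals overlapped.

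**Figure D2:**
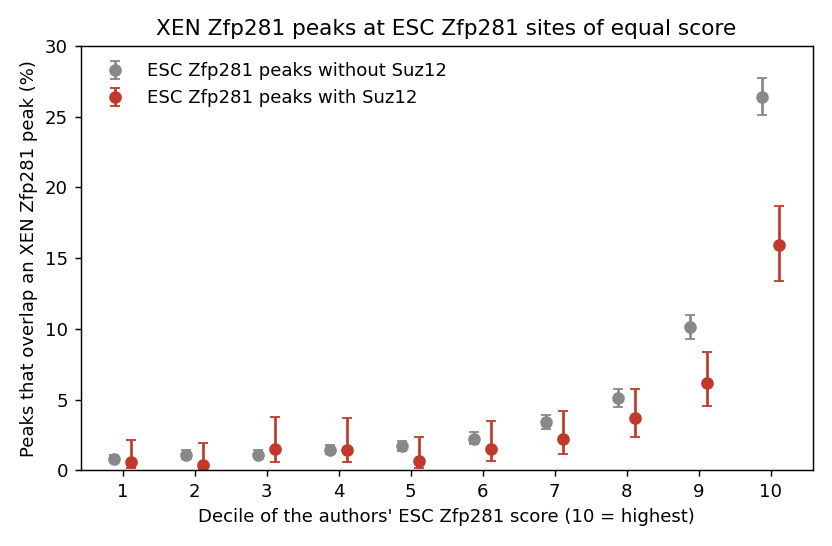
Share of ESC Zfp281 peaks that overlap an XEN Zfp281 peak (%, vertical axis) by decile of the authors' ESC Zfp281 score (horizontal axis, 10 highest), for peaks with Suz12 (red) and without (grey); bars are 95% Wilson intervals. In the highest decile the shares were 15.9% with Suz12 and 26.4% without.

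Had peaks with Suz12 met XEN peaks at the rate of peaks without Suz12 in the same score decile, 320 would have done so. The 200 observed are 0.624 times that number (0.541 to 0.717, exact Poisson interval of the observed count, with the reference rate taken as fixed). The ratio was chosen after the data were seen and restates the overlaps that define the sites, so it is a description and its interval is no test. Dividing the peaks by score and width together gave 0.572 (0.495 to 0.657), and by width alone 0.530 (0.459 to 0.608). The ratio was 0.619 (0.531 to 0.718) without chromosomes 1 and 8, on which the expected level was above the background at 25 of 25 sites, against 110 of 175 elsewhere. These 2 chromosomes held 12.5% of the sites, 12.4% of the peaks with Suz12 but no XEN peak and 14.5% of all ESC Zfp281 peaks.

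The ratio was below 1 in each quartile of the Suz12 score, at wide Suz12 peaks, and with the Zfp281 summit inside (0.577, 0.471 to 0.699) or outside Suz12 (0.685, 0.555 to 0.837). It was 0.597 (0.390 to 0.875) at Suz12 peaks in the lowest quartile of the Suz12 score, 0.814 (0.596 to 1.09) in quartile 2, 0.649 (0.470 to 0.874) in quartile 3 and 0.552 (0.441 to 0.682) in the highest. The intervals of all 4 overlapped. At Suz12 peaks wider than 5 kb, 31 of the 908 Zfp281 peaks had an XEN peak and the ratio was 0.460 (0.312 to 0.652).

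**Figure D3:**
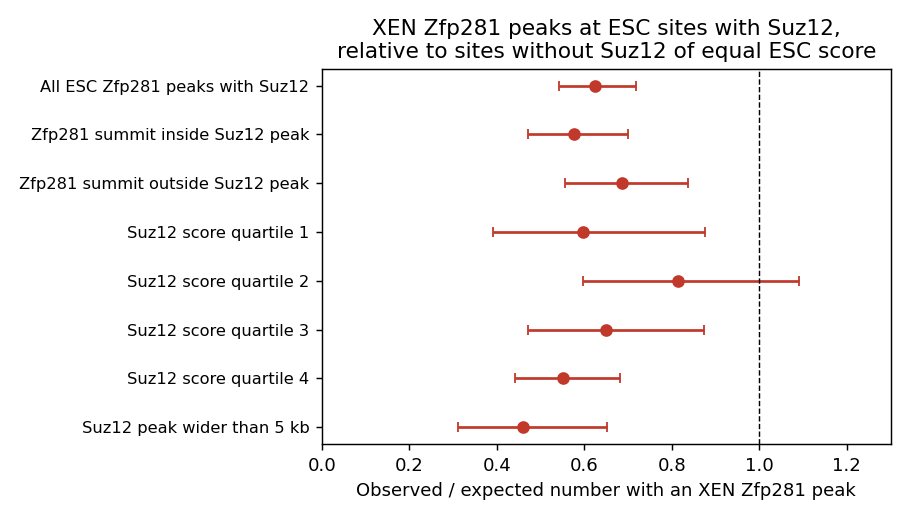
Number of ESC Zfp281 peaks with Suz12 that had an XEN Zfp281 peak, divided by the number expected from peaks without Suz12 in the same ESC score decile (horizontal axis), for all such peaks and for classes by summit position, Suz12 score and Suz12 width. Bars are 95% Poisson intervals of the observed count and the dashed line marks a ratio of 1; all values lie between 0.460 and 0.814.

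At 96 of the 200 sites the ESC Zfp281 summit lay outside every Suz12 peak. The ESC Zfp281 summit was inside a Suz12 peak at 104 of the 200 sites (52.0%, 45.1 to 58.8%), against 65.9% (64.4 to 67.4%) of the ESC Zfp281 peaks with Suz12 but no XEN peak. Wider peaks can reach a Suz12 peak from farther away. At the widths of the 200 sites, 61.5% of the latter would have had their summit inside, a value above the interval for the sites. Over the alternative settings the share of sites with the summit inside ran from 49.0 to 63.3%. At equal score the intervals met in each of 4 score ranges: among the 50 strongest of the sites 46.0% (33.0 to 59.6%) had the summit inside, and 39.6% (32.2 to 47.5%) of the other peaks with Suz12 in that score range. In the next 50 the values were 44.0% (31.2 to 57.7%) and 56.2% (50.5 to 61.8%), and in the 50 after that 54.0% and 59.4%. Among the 50 weakest they were 64.0% (50.1 to 75.9%) and 69.2% (67.4 to 71.0%).

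At the 96 sites with the ESC summit outside Suz12, the distance was limited by the rule, since the Zfp281 peak itself overlaps Suz12. The median distance to the nearest Suz12 edge was 252 bp (quartiles 100 and 560 bp) and the farthest was 1846 bp. It was 171 bp (quartiles 85.2 and 329 bp) at the 1318 peaks with Suz12 but no XEN peak whose summit was outside. At 22 of these 96 sites (22.9%, 15.6 to 32.3%) the Zfp281 peak met Suz12 peaks on both sides of its summit, so that the summit stood in a gap of the Suz12 signal. Across all 200 sites, 26.0% (20.4 to 32.5%) met 2 or more Suz12 peaks, compared with 16.2% (15.0 to 17.3%) of the peaks with Suz12 but no XEN peak. Neither this comparison nor that of the distances was made at equal width, and the sites were the wider peaks. At 159 sites some bases were common to all 3 lists. At the other 41 the Suz12 peak and the XEN peak touched different parts of the ESC Zfp281 peak.

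**Figure D4:**
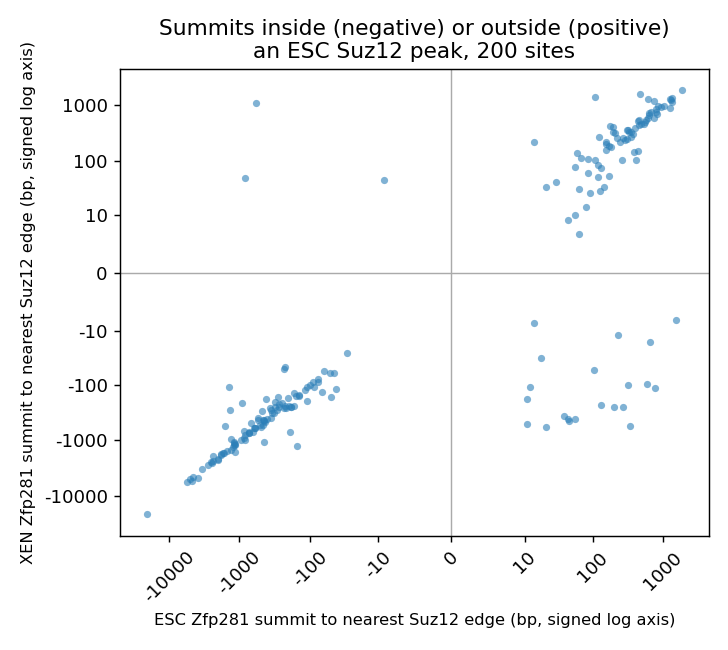
Distance from the ESC Zfp281 summit (horizontal axis) and from the XEN Zfp281 summit (vertical axis) to the nearest ESC Suz12 peak edge, in bp on signed log axes, one point per site; negative values are inside a Suz12 peak. Both summits were inside at 101 sites and both outside at 75, and 24 points lie in the other 2 quadrants.

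The XEN summit took the same side of the Suz12 border at most sites. Taking the highest-scoring XEN peak of each site, both summits were inside a Suz12 peak at 101 sites and both outside at 75. The remaining 24 were unequal, with only the XEN summit inside at 21 sites and only the ESC summit inside at 3. In all, the XEN summit was inside a Suz12 peak of ESCs at 61.0% of the sites (54.1 to 67.5%).

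The 2 cell types had their summits at nearly the same position. The median distance from the ESC summit to the nearest XEN summit was 57.5 bp with quartiles of 27.8 and 163 bp. At 127 sites the summits were within 100 bp (63.5%, 56.6 to 69.9%). At the 2466 ESC and XEN peaks without Suz12 they were that close in 73.9% (72.2 to 75.6%). In the widest decile of ESC peaks, which held 117 of the 200 sites, the shares were 60.7% (51.6 to 69.1%) and 65.4% (62.1 to 68.6%), and in deciles 8 and 9 they were 72.2% (59.1 to 82.4%) and 76.5% (73.5 to 79.2%), with overlapping intervals in both. In the 7 narrower deciles they were 58.6% (40.7 to 74.5%) of 29 sites and 79.9% (77.0 to 82.6%), and the intervals did not meet. At 26 of the 200 sites the summits were more than 500 bp apart.

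**Figure D5:**
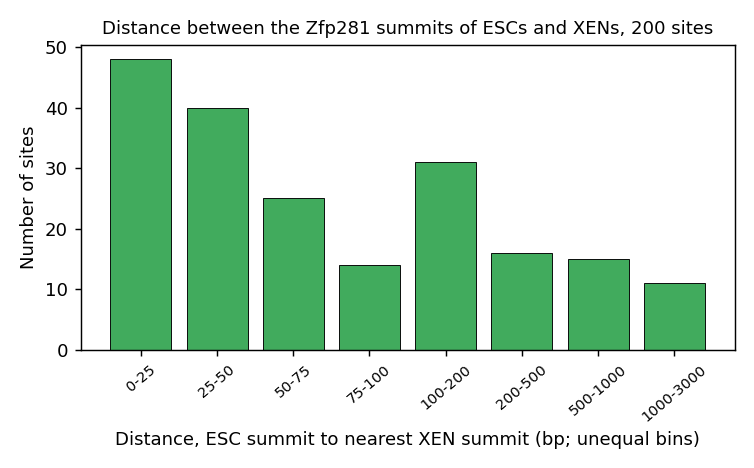
Number of the 200 sites (vertical axis) by distance from the ESC Zfp281 summit to the nearest XEN Zfp281 summit (horizontal axis, bp, bins of unequal width). The bins up to 100 bp hold 127 sites, and the last 2 bins, from 500 bp, hold 15 and 11.

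Strength in one list was weakly related to strength in another. Across the 200 sites, Spearman's rho was 0.205 between the ESC and XEN Zfp281 folds, 0.0198 between the ESC Zfp281 and Suz12 folds and -0.0498 between the XEN Zfp281 and Suz12 folds. These are descriptions across sites that share their 3 libraries. At the 2466 ESC and XEN peaks without Suz12, rho between the 2 Zfp281 folds was 0.230. No site was among the 10 highest of the 200 in more than 1 list, so the named sites below are 30 in number. With sets of 10 in 200, unrelated orders would also share few sites or none. Positions are those of the ESC Zfp281 peak in mm9, counted from 1, and gene annotation at them was not used here.

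The 10 sites with the highest ESC Zfp281 score all had their ESC summit outside Suz12. The first, chr11:69179961-69183013, ranked 11 in the ESC Zfp281 list, with a 66.6-fold enrichment and 306 tags at the summit. Its XEN peak was 7.79-fold with 37 tags (26.1 to 51.0, exact Poisson interval) and its summit lay 102 bp inside the edge of the 1668 bp Suz12 peak, 1885 bp from the ESC summit. It was the only one of the 10 with its XEN summit in Suz12.

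The second, chr1:59538163-59540354, was 49.7-fold in ESCs and 10.6-fold in XENs, with 64 tags (49.3 to 81.7). Its ESC summit lay 818 bp from the edge of a weak Suz12 peak (3.51-fold). The next 3 were chr8:121969579-121971811, chr12:88323455-88325566 and chr1:36611924-36615736, with ESC folds of 46.2, 35.3 and 38.0 and XEN folds of 6.23, 5.74 and 6.86. In each of these the ESC and XEN summits were at most 49 bp apart.

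The other 5 were chr8:111238215-111240219, chr19:55816738-55819115, chr11:98203030-98204572, chr8:46019986-46021110 and chr2:17946812-17950852. Over all 10, ESC folds ran from 33.4 to 66.6 and XEN folds from 4.83 to 10.6. Their Suz12 peaks were 398 to 1868 bp wide and 3.51-fold to 13.0-fold, on both sides of the medians of the 200 sites (1478 bp and 6.80-fold). The XEN peaks of these 10 sites ranked between 342 and 2625 in the XEN list.

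The 10 sites with the highest XEN score were all in the top decile of the ESC list as well. The first, chr12:77646837-77649389, had a 19.0-fold XEN peak of rank 19 with 139 tags (117 to 164), and an 18.9-fold ESC peak of rank 2628. The summits were 37 bp apart, and the ESC summit lay 795 bp outside a Suz12 peak of 481 bp. The second, chr9:57959786-57962571, was 22.1-fold in XENs with 90 tags (72.4 to 111) and 21.1-fold in ESCs, with its summit 322 bp from Suz12.

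The next, chr16:50529025-50530540, lay inside Suz12. It was 14.9-fold in XENs and 17.6-fold in ESCs, its summits were at the same base, and that base was 593 bp within a Suz12 peak of 1268 bp. The site chr5:143577841-143585706, was the widest of the 200 at 7866 bp. It met 4 XEN peaks, the strongest at 15.1-fold and 5079 bp from the ESC summit. The nearest XEN summit lay 15 bp from the ESC summit. The site also met 2 Suz12 peaks, the higher-scoring one 19.1-fold. The site chr13:51940929-51944612, was 42.4-fold in ESCs and 12.5-fold in XENs, with summits 28 bp apart and 1715 bp inside a Suz12 peak of 4185 bp.

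The remaining 5 were chr13:49343461-49344672, chr2:118372421-118375282, chr2:168664851-168668795, chr8:64069125-64070444 and chr11:94850461-94854817. The XEN folds of the 10 ran from 11.6 to 22.1 and their ESC folds from 14.5 to 42.4. The ESC summit was inside Suz12 at 6 of them. Apart from the wide chr5 site and chr13:51940929-51944612, their Suz12 peaks were at most 9.37-fold.

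The 10 sites with the highest Suz12 score all had both Zfp281 summits inside a Suz12 peak. The highest-scoring Suz12 peak of each was 23.1-fold to 40.1-fold and 4276 to 72276 bp wide. The summit of an overlapping peak falls inside such wide peaks more easily, and the sets of 10 were not compared at equal Suz12 width. The first, chr3:128915380-128916146, was a weak Zfp281 site in both cell types, 3.81-fold with 18 tags in ESCs and 4.38-fold with 31 tags (21.1 to 44.0) in XENs. It lay in the second-ranked Suz12 peak, 16460 bp wide.

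The next 2 sites shared a Suz12 peak, chr2:147861854-147876225, of 14372 bp and 37.6-fold. At chr2:147865137-147867028 the ESC fold was 9.72 and the XEN fold 6.72. At chr2:147870845-147873054 the ESC fold was 8.02 and the summits were 18 bp apart. This was one of 6 Suz12 peaks that held 2 of the sites.

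The site chr2:115890276-115892433, was 5.73-fold in ESCs and 9.02-fold in XENs. The next, chr11:118894859-118896154, had the highest ESC fold of the 10, at 34.1, with an XEN fold of 9.40 and summits 5 bp apart. The site chr15:102828119-102831948, stood in the 72276 bp domain, 20428 bp from its nearer edge, with 23.9-fold enrichment in ESCs and a 5.16-fold XEN peak of 23 tags (14.6 to 34.5).

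The other 4 were chr11:18776609-18779003, chr1:4486246-4487312, chr14:63863250-63866022 and chr18:47528137-47530395. The last met 2 Suz12 peaks, and its XEN peak lay outside the higher-scoring one. At chr1:4486246-4487312 the XEN peak, 7.71-fold with 65 tags (50.2 to 82.8), ranked 541 in its list, while the ESC peak, 5.93-fold with 31 tags, ranked 20850. Only 4 of these 10 sites were in the top score decile of the ESC list, against all 10 of the set chosen by XEN score. In the set chosen by ESC score, all 10 are there by the choice itself.

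Weak ESC sites were few among the 200. The top score decile held 58.0% of them (51.1 to 64.6%), and the lowest 7 deciles together held 27, with ESC folds of 3.48 to 8.22 and 13 to 39 tags at the summit. Of these 27, 17 had the summit inside Suz12.

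None of the 200 sites overlapped a peak of the XEN Suz12 list, and of all ESC Zfp281 peaks 1 did (0.00191%). That list held 4 peaks, the nearest 2607011 bp away, so few sites of any kind could meet one. None of the 200 overlapped the single XEN H3K27me3 peak, nor did any other ESC Zfp281 peak (0%). The lowest -log10 q-values of these 2 lists were 14.1 and 16.9, against 1.31 to 1.53 in the 3 long ones, so weaker Suz12 or H3K27me3 signal in XENs at these sites would not be seen.

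The sites were seldom decided by a few bases. Among the 200 the smallest overlap with a Suz12 peak was 7 bp and with an XEN peak 54 bp, and 6 and 2 sites had less than 100 bp. Just outside the rule, 1 ESC Zfp281 peak with Suz12 had an XEN peak less than 100 bp away, at 98 bp. A further 5 peaks shared with XENs had a Suz12 peak less than 100 bp away, the nearest at 43 bp.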

How the data were processed

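Per the labels, ChIP DNA was sequenced as paired-end reads. The submitters' processing notes name FastQC 0.10.1, Bowtie2 2.3.4, SAMtools 0.1.19 and the mm9 build; the peak caller and its control are not given in the sources used here. The authors deposited 1 list per ChIP library with 10 columns. Each deposited peak has a start, end and summit, a score, a fold enrichment and -log10 p- and q-values. The deposited score equals 10 times the -log10 q-value without decimals in every peak. Classes by strength were formed within a list. Folds, tags and ranks of different lists are set side by side above, but they were not brought to a common scale.

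Sites were found by overlap of 1 bp or more (Python 3.11.15, pandas 2.3.3, scipy 1.17.1), and the code was tested on simulated data. Tags at a summit and the expected level were computed from the deposited fold and -log10 p-value, taking the fold as pileup plus 1 over expected plus 1 and the p-value as a Poisson tail. All 200 ESC Zfp281 peaks and 215 of 217 XEN peaks matched within 0.002. Expected levels are in pileup units, and the pileup per tag was 1.00 (ESC Zfp281), 0.815 (XEN Zfp281) and 0.590 (ESC Suz12). Shares have Wilson intervals, medians order-statistic intervals and counts exact Poisson intervals.

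The sites and classes were chosen with earlier results of these data known. Named sites are the 10 with the highest score in each of the 3 lists. No genome or annotation of mm9 was used here, so the 3 planned results on transcription start sites, a G-rich element and CpG content were not run, no sequence is shown and planned gene lists were not used.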

Additional observations from a re-analysis of the deposited data

How the results depend on the processing

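No paired analysis was possible because there was 1 library in each group. The ratio of observed to expected XEN peaks, the chromosome and single-site exclusions and the strata were chosen after seeing the data. Of 67 values over 11 settings, 49 were counted as staying and 18 as moved. Staying meant a value within the interval of the reported value. For the number of sites, a value within 1.5 times counted as staying, even outside the interval of 173 to 230. Such were the 158 sites with 50% of the shorter peak covered. So were the 155 sites with an ESC summit within 500 bp of the Suz12 peak and XEN summit. A change of side was counted for the ratio alone, and none of its 11 alternatives crossed 1. The share with Suz12 exceeded the share without it at 50% overlap (5.17% and 5.03%). It did so too with peaks merged (5.57% and 5.37%). The intervals overlapped in both. The higher-scoring 50% of the XEN Zfp281 list left 98 sites, shares with an XEN peak of 2.41% with Suz12 and 2.87% without, a median ESC fold of 19.3 and a ratio of 0.520. The same limit on the ESC Zfp281 list gave shares of 7.18% and 9.15%. On the Suz12 list it left 128 sites, a median Suz12 width of 2120 bp and 60.9% of summits inside Suz12. When each overlap was replaced by an ESC summit within 500 bp of the Suz12 peak or XEN summit, the shares were 3.70% and 4.90%. In that setting 72.9% of sites had summits within 100 bp and 61.3% had the summit inside Suz12. With 50% of the shorter peak covered, 63.3% did. Merging gave a share without Suz12 of 5.37% and a Suz12 width of 1650 bp. Strata of width gave a ratio of 0.530. Over its 11 alternatives the ratio ran from 0.520 to 0.666. Fewer peaks lower the number of sites by construction. Requiring close summits likewise leaves out sites with distant ones, and merging joins Suz12 peaks into wider ones. The cause of the other moves was not tested. A peak missing from the XEN list may lie just under its threshold.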
